A study of Mus musculus with 123 samples.

Results

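The genes described here carry out cholesterol synthesis, sterol sensing and sterol transport in the liver. They are 28 of the 15398 genes in the deposited table, chosen by name from a list of pathway members, and all 28 were found and passed the filter on low expression. The data are RNA sequencing of mouse livers. The mice had a diet high in fat (HFD) or one low in fat (LFD) and lived in 1 of 3 photoperiods, which the labels name Short, Equal and Long light. Tissue was collected at zeitgeber times (ZT, hours of the light cycle) 0, 4, 8, 12, 16 and 20 h, so 2 diets, 3 photoperiods and 6 times make 36 groups of 3 or 4 libraries, 61 on HFD and 62 on LFD. A diet in a photoperiod is called an arm, and an arm held 20 or 21 libraries. The labels used here give no strain, sex, age, genotype, composition of the diets, weeks of feeding or hours of light per day. They name no animals, so a p-value here speaks only of the spread between libraries, which may be partly technical.

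Cholesterol is built from acetyl-CoA through mevalonate, isoprenoid diphosphates, squalene and lanosterol, and the liver is a main site of this synthesis. When sterols in the endoplasmic reticulum are low, Scap escorts the precursor of the transcription factor encoded by Srebf2 to the Golgi, where it is cut and released to switch on most genes of the pathway. When sterols are high, Insig proteins hold Scap back, and the pathway genes are turned down together. In rodents, cholesterol synthesis in the liver is also known to follow a daily cycle tied to feeding.

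Values are log2 CPM, the log2 of read counts scaled by the library sizes behind the deposited values, with a small prior added. A log2 difference of 1 is a doubling. The scaling does not give libraries a common total: on the linear scale the values of a library summed to between 818333 and 1105802. Logs of the deposited library sizes had a correlation of 1 with those of TMM scaling, one of the alternatives listed below. Libraries held between 13.97 M and 39.09 M recovered reads (M for mega), on average 24.17 M in HFD and 24.77 M in LFD. The lowest value of any member was 58 reads, found for Idi1 and for Mvd, and the highest was 36760 reads, for Sc5d. The mean level of 8 hepatocyte markers, all measured, lay between 11.11 and 11.99 log2 CPM in every library. Markers of other tissues were uneven: 19 libraries, 5 HFD and 14 LFD, had a mean log2 CPM above 4 over the pancreas acinar or the skeletal muscle markers. The 11 measured pancreas markers had a median mean level of -2.26 in HFD (-2.75 to 5.44) and -0.94 in LFD (-2.65 to 8.29), and 10 of the 11 were called lower in HFD. Of 8 Kupffer cell markers, 6 were called higher in HFD, with a median mean level of 4.71 against 4.51 log2 CPM. The share that these tissues had in the results below was not tested beyond leaving out the 19 libraries, and in bulk liver fewer cells of a type and less RNA per cell cannot be told apart.

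The promoters of this pathway are known for a sterol regulatory element, to which the Srebf2 product binds, together with CCAAT and GC boxes for its partner factors. RefSeq windows on GRCm38.p6 were available for 22 of the 28 members, and the 200 bases before each RefSeq start were searched on both strands. Shown are the 3 members with the largest diet difference among those with a window (Pmvk, Idi1 and Mvd) and the 3 that hold the letters TCACNNCAC, one spelling of the sterol element (Hmgcs1, Msmo1 and Hsd17b7). Each is written 5′ to 3′ on the strand of the gene. Capitals mark TCACNNCAC and 3 further motifs, each on either strand. They are the CCAAT box, the GC box with the letters GGGCGG, and the E-box CACGTG, which clock factors among others can bind.
Pmvk, chr3:89454341-89454540, plus strand: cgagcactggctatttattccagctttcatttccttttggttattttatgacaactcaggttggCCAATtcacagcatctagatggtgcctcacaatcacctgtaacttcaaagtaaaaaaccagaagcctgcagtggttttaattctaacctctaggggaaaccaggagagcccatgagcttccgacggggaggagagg
Idi1, chr13:8885406-8885605, plus strand: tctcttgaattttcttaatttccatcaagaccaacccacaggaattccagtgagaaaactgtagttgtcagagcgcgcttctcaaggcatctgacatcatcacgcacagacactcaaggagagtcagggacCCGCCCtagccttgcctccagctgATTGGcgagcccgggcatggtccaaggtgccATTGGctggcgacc
Mvd, chr8:122443423-122443622, minus strand: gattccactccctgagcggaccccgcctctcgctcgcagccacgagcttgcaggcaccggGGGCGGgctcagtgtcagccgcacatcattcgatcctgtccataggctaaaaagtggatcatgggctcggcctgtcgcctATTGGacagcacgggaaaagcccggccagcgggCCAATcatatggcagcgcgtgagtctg
Hmgcs1, chr13:119690151-119690350, plus strand: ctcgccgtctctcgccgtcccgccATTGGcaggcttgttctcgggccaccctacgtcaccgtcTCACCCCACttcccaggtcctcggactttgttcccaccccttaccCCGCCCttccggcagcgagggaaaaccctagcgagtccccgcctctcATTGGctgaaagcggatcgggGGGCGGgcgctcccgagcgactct
Msmo1, chr8:64733579-64733778, minus strand: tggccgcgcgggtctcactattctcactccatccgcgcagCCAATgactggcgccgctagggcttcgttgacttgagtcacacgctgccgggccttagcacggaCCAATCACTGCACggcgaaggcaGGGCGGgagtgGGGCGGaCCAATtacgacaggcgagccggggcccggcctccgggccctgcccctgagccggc
Hsd17b7, chr1:169969206-169969405, minus strand: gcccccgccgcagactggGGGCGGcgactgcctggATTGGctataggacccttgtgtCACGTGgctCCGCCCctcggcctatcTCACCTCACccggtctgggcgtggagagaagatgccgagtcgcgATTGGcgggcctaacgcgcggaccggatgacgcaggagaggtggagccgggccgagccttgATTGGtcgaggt

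TCACNNCAC occurred in 3 of the 22 members' windows, and in 2.53% of 32851 mouse promoter windows of the same length. CCAAT occurred in 18 of the 22, against 29.3% of all windows, and GGGCGG likewise in 18 of the 22, against 31%. CACGTG, a palindrome read alike on both strands, occurred in 3 (Hsd17b7, Insig1 and Sc5d), against 5.26%. In Msmo1 one CCAAT shares bases with the sterol letters, and they print as a single run of capitals. Of the 6 windows printed, Pmvk has a single CCAAT and none of the other letters, while Hsd17b7 has 3 CCAAT, 2 GC boxes, the E-box and the sterol letters. These are matches of letters and not measured binding, and other spellings of the sterol element were not searched.

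The first comparison asked how the diets differed over all photoperiods and times. Most of the pathway was expressed at a lower level in HFD livers: 17 of the 28 members fell and 0 rose (limma, adjusted p under 0.05 over 14397 genes, likewise 17 and 0 by limma-voom). Of those not called, Mylip had a positive difference at an unadjusted p of 0.0203. Over all genes 25.5% were called, 12.6% lower in HFD. The median log2 difference was -0.21 over the 28 members and -0.0038 over all genes. By step, 3 of 5 mevalonate genes, 3 of 3 isoprenoid genes, 3 of 3 squalene genes, 5 of 9 genes after lanosterol, 1 of 3 sensing genes and 2 of 5 transport genes fell. The count of 17 depended on the first library of each group. Without these 36 libraries 4 members were called (Ggps1, Lbr, Stard4 and Npc2), and the other 13 still had negative differences, from -0.11 for Scap to -0.68 for Sqle, with adjusted p-values of 0.351 and 0.0564. Without the third library of each group, 11 were called. Fits without libraries have fewer samples, and the share of all genes called in them was not counted.

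**Figure D1:**
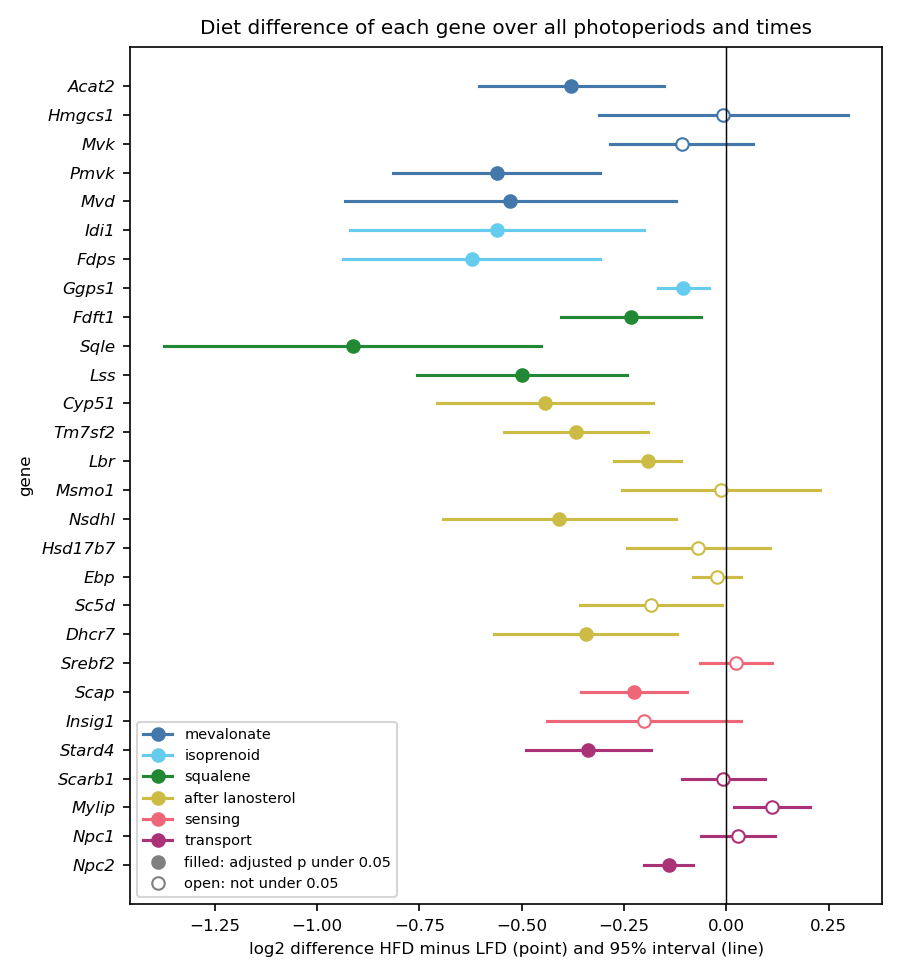
Log2 difference HFD minus LFD for each of the 28 genes (points) with its 95% interval (lines), over all photoperiods and times, coloured by pathway step. Filled points passed an adjusted p of 0.05: 17 genes are filled, all of them left of 0, and Sqle lies farthest left at -0.91.

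Within the mevalonate step, which makes the isoprenoid building block, 3 of 5 genes fell, and differences between its members were not tested. Pmvk, phosphomevalonate kinase, ran from 3.92 through a median of 5.85 to 7.61 log2 CPM in LFD, and from 4.00 through 5.08 to 7.02 in HFD. The ranges overlapped almost wholly and the HFD libraries were shifted down, with a log2 difference of -0.56 (SE 0.13, adjusted p 0.000397), or 32.2% lower. Mvd, the decarboxylase that ends this step, fell by 0.53 on the log2 scale (SE 0.20, adjusted p 0.0449). Acat2, the cytosolic thiolase that joins acetyl-CoA units, fell by 0.38 (SE 0.11, adjusted p 0.0083). Hmgcs1, the cytosolic synthase that follows it, stood at a median of 7.29 in LFD and 7.27 in HFD, with a log2 difference of -0.01 and a 95% interval from -0.31 to 0.30. Mvk, mevalonate kinase, had a difference of -0.11 (-0.28 to 0.06). Hmgcs1 and Mvk were not called.

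The isoprenoid genes were all called. Fdps, which makes farnesyl diphosphate, the branch point towards sterols and prenylated proteins, had a lowest, median and highest log2 CPM of 3.48, 5.98 and 7.67 in LFD and of 3.32, 5.11 and 7.29 in HFD. It fell by 0.62 (SE 0.16, adjusted p 0.0016), or 35% lower, and was lower in HFD in 16 of 18 pairs of groups matched for photoperiod and time. Idi1, the isomerase ahead of it, fell by 0.56 (SE 0.18, adjusted p 0.0148) and was lower in 17 of the 18 pairs. Ggps1 draws on farnesyl diphosphate to make geranylgeranyl diphosphate for prenylation, a side branch of the sterol route. It fell by 0.105 (SE 0.031, adjusted p 0.00691), or 7.02%, and without the 19 libraries high in other tissue markers its adjusted p was 0.0669.

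Sqle had the largest diet difference of the 28 genes. It encodes squalene epoxidase, which adds the first oxygen of the sterol ring system and is a known control point of the pathway, and it lies on chromosome 15 from 59315077 to 59331192 (plus strand, GRCm38). Its log2 CPM ran from 2.08 through a median of 5.22 to 7.59 in the 62 LFD libraries and from 2.22 through 4.51 to 7.23 in the 61 HFD libraries. Both diets covered nearly the same range, and the HFD mean was lower in 18 of the 18 matched pairs of groups. The log2 difference was -0.91 (SE 0.23, 95% interval -1.37 to -0.45, adjusted p 0.00161), or 46.9% lower. Lss, which closes the ring to lanosterol, fell by 0.50 (SE 0.13, adjusted p 0.002), from a median of 6.43 to one of 5.80. Fdft1, squalene synthase, fell by 0.23 (SE 0.086, adjusted p 0.0341).

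After lanosterol, 5 of 9 genes fell. Cyp51, the lanosterol demethylase, fell by 0.44 (adjusted p 0.0081) and Nsdhl, which acts on the methyl groups of the ring, by 0.41 (adjusted p 0.0255). Tm7sf2 and Lbr both encode sterol reductases of the next step, Lbr also being a protein of the inner nuclear membrane. Tm7sf2 ran from 4.98 through 6.96 to 7.71 log2 CPM in LFD and from 5.37 through 6.48 to 7.59 in HFD. It fell by 0.37 (SE 0.088, adjusted p 0.000838), lower in 18 of the 18 matched pairs. Lbr fell by 0.19 (SE 0.041, adjusted p 0.000165), a smaller difference with a smaller error. Dhcr7, the reductase that makes cholesterol from its immediate precursor, fell by 0.34 (adjusted p 0.0163). The other 4 were not called: Msmo1 at -0.01, Ebp at -0.02, Hsd17b7 at -0.07 and Sc5d at -0.18 (adjusted p 0.112). Msmo1, the methylsterol oxidase whose product Nsdhl uses, had an interval from -0.25 to 0.23. Without the 19 libraries rich in other tissues Sc5d, a desaturase near the end of the pathway, was called at -0.29 (adjusted p 0.027).

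Of the sensing genes, Scap alone was called, and whether it differed from the other sensing genes was not tested. It fell by 0.23 (SE 0.065, adjusted p 0.00586), from a median of 6.99 log2 CPM in LFD to 6.76 in HFD, but had an adjusted p of 0.351 without the first library of each group. Srebf2 lay between 5.11 and 6.23 in LFD and between 4.72 and 6.23 in HFD, with medians of 5.78 and 5.76. Its log2 difference was 0.02, with an interval from -0.07 to 0.11. Insig1 had the widest range of the sensing genes, from 5.60 to 9.73 in LFD and from 6.94 to 9.49 in HFD. Its median was 8.91 in LFD and 8.48 in HFD, and its difference of -0.20 was not called (adjusted p 0.216).

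Among the transport genes, Stard4, a soluble sterol carrier, fell by 0.34 (SE 0.077, adjusted p 0.000401), from a median of 7.44 to one of 7.02. Npc2, a lysosomal protein that hands cholesterol to Npc1, fell by 0.14 (SE 0.030, adjusted p 0.000155), or 9.3%, from a median of 6.0 to one of 5.87. Its membrane partner Npc1 had a difference of 0.03 (-0.06 to 0.12). Scarb1, the receptor that takes up cholesterol from high-density lipoprotein, had a difference of -0.01 (-0.11 to 0.09). Mylip, a ubiquitin ligase that marks lipoprotein receptors for breakdown, had a difference of 0.11 (adjusted p 0.0712) and was lower in HFD in 3 of the 18 pairs. It was called without the 19 libraries rich in other tissues, at 0.15 (adjusted p 0.0444).

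Some members share exon bases with other genes, and no source used here gives the strand setting of the authors' counting. On the same strand, Tm7sf2 shares 532 bases with Vps51, Fdps 1124 with the gene model Gm43738 and Lbr 69 with the rRNA gene Gm26004. On the opposite strand, Fdft1 shares 774 bases with Ctsb, Hmgcs1 557 with Gm48342, Npc1 511 with Rmc1, Lss 381 with 4930483K19Rik, Ggps1 257 with Arid4b and Cyp51 166 with Akap9, and Scap shares 985 with 5830462I19Rik. Lbr also shares 440 opposite-strand bases with Dnah14, Idi1 323 with Gm48574 and Npc1 90 with Gm15956. Reads in these stretches can belong to either gene.

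Within single photoperiods fewer members passed. In Equal light 5 were called, all lower in HFD: Sqle at -1.29 (adjusted p 0.0357), Pmvk at -0.78 (0.0187), Lss at -0.73 (0.0325), Lbr at -0.31 (0.00305) and Npc2 at -0.16 (0.0417). Over all genes 6.85% were called there. In Short light 1 member was called, Stard4 at -0.42 (adjusted p 0.0369), against 6.88% of all genes. In Long light limma called 0 of the 28, with 3 at an unadjusted p under 0.05 and 0 by limma-voom, against 4.86% of all genes. The median difference over the members was -0.30 in Equal, -0.15 in Long and -0.23 in Short light. Sqle stood at -1.29, -0.62 (SE 0.40) and -0.82 (SE 0.40) in the 3 photoperiods, and Fdps at -0.83, -0.41 and -0.62. The test of the difference itself, diet by photoperiod, called 0 members (0 at an unadjusted p under 0.05, 0 by limma-voom) and 0% of all genes. Without the 2 libraries farthest from their groups, both of them in Equal light, or without the 19 rich in other tissues, the Equal light count was 9. With 1 library of each group left out in turn it ranged from 0 to 5 in Equal light and from 0 to 2 in Short light. The share of all genes called in these smaller fits was not counted.

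The diets were then compared at each time, with photoperiods weighted equally. At ZT4 the medians of Scap were 7.48 log2 CPM in 10 LFD libraries (7.09 to 8.05) and 6.83 in 11 HFD libraries (6.03 to 7.36). The ranges met only between 7.09 and 7.36, and Scap was called at ZT4, 0.63 lower on the log2 scale (SE 0.16, adjusted p 0.0149). Lbr was the other member called at ZT4, at -0.36 (SE 0.10, adjusted p 0.0303), against 2.36% of all genes. At the other times limma called 0 of the 28, and limma-voom 0. The background there was 0.472% at ZT0, 0.181% at ZT8, 0.00695% at ZT12, 2.5% at ZT16 and 0.597% at ZT20, and the members at an unadjusted p under 0.05 numbered 1, 2, 0, 13 and 2.

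Median differences over the 28 members were -0.38 at ZT4 and also at ZT16, between -0.16 and -0.24 at ZT0, ZT8 and ZT12, and -0.04 at ZT20. At ZT16 Fdps had a median of 6.11 in 12 LFD libraries (4.21 to 7.67) and 5.03 in 9 HFD libraries (3.72 to 6.47). Its difference of -1.23 (SE 0.38) had an adjusted p of 0.0582. Sqle at ZT16 had a difference of -1.26 (SE 0.56, adjusted p 0.248), with LFD libraries from 2.08 to 7.59 and HFD libraries from 2.22 to 6.19. At ZT20 the medians of Fdps were 4.90 and 4.82, and Hmgcs1 had a difference of 0.54 (-0.21 to 1.29) and Msmo1 one of 0.43 (-0.17 to 1.03). Limma called 0 members for diet by time (1 at an unadjusted p under 0.05, Scap; 0 by limma-voom) and 0% of all genes, so the course of the diet difference over the day was not shown to vary. The counts at single times rest on few libraries: without the 19 rich in other tissues, or without the first library of each group, 0 members were called at any time. How many of all genes were called in these smaller fits was not counted.

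**Figure D2:**
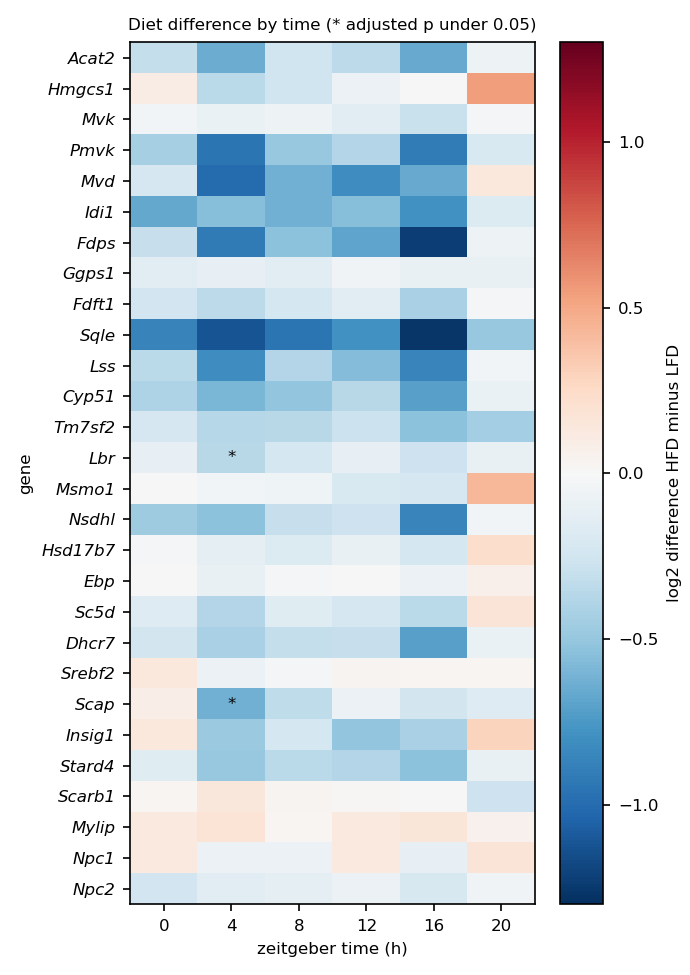
Heat map of the log2 difference HFD minus LFD for each gene (rows) at each zeitgeber time (columns), photoperiods weighted equally, blue where HFD was lower. Asterisks mark Lbr and Scap at ZT4, called at an adjusted p under 0.05; the columns for ZT4 and ZT16 are the darkest blue, and the one for ZT20 is pale.

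Daily rhythm was fitted as a cosine of 24 h in each arm and averaged over photoperiods within a diet. Courses that peak at different times partly cancel in this average, so a low amplitude can also come from peaks that lie apart. In LFD 17 of 28 members were rhythmic, against 33% of all genes. Of these, 16 peaked between 6.57 and 10.63 h, with a peak to trough ratio from 1.15 to 2.53. The largest was that of Fdps, with an amplitude of 0.67 (SE 0.16, log2 from mean to peak, adjusted p 0.00246) and a peak at 9.44 h. Lss peaked at 9.51 h and Msmo1 at 8.91 h, with ratios of 1.94 and 1.98, and Insig1 at 8.65 h with 1.90. Scap had the earliest of these peaks at 6.57 h. The uptake receptor gene Scarb1 peaked at 19.91 h, with a ratio of 1.3 (adjusted p 0.00566), on the other side of the day from the synthesis genes. Sqle had a ratio of 2.07 and a peak at 8.81 h but was not called (adjusted p 0.16), and Srebf2 had an amplitude of 0.05 (adjusted p 0.675). In LFD the medians of Fdps were 5.08, 6.61, 5.95, 6.20, 6.11 and 4.90 log2 CPM from ZT0 to ZT20, lowest at ZT20 and ZT0. Without the 19 libraries rich in other tissues, 14 of them LFD, 7 members were called rhythmic in LFD. With 1 library of each group left out in turn the count ranged from 3, without the third, to 21. For these smaller fits the share of all genes called was not counted.

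**Figure D3:**
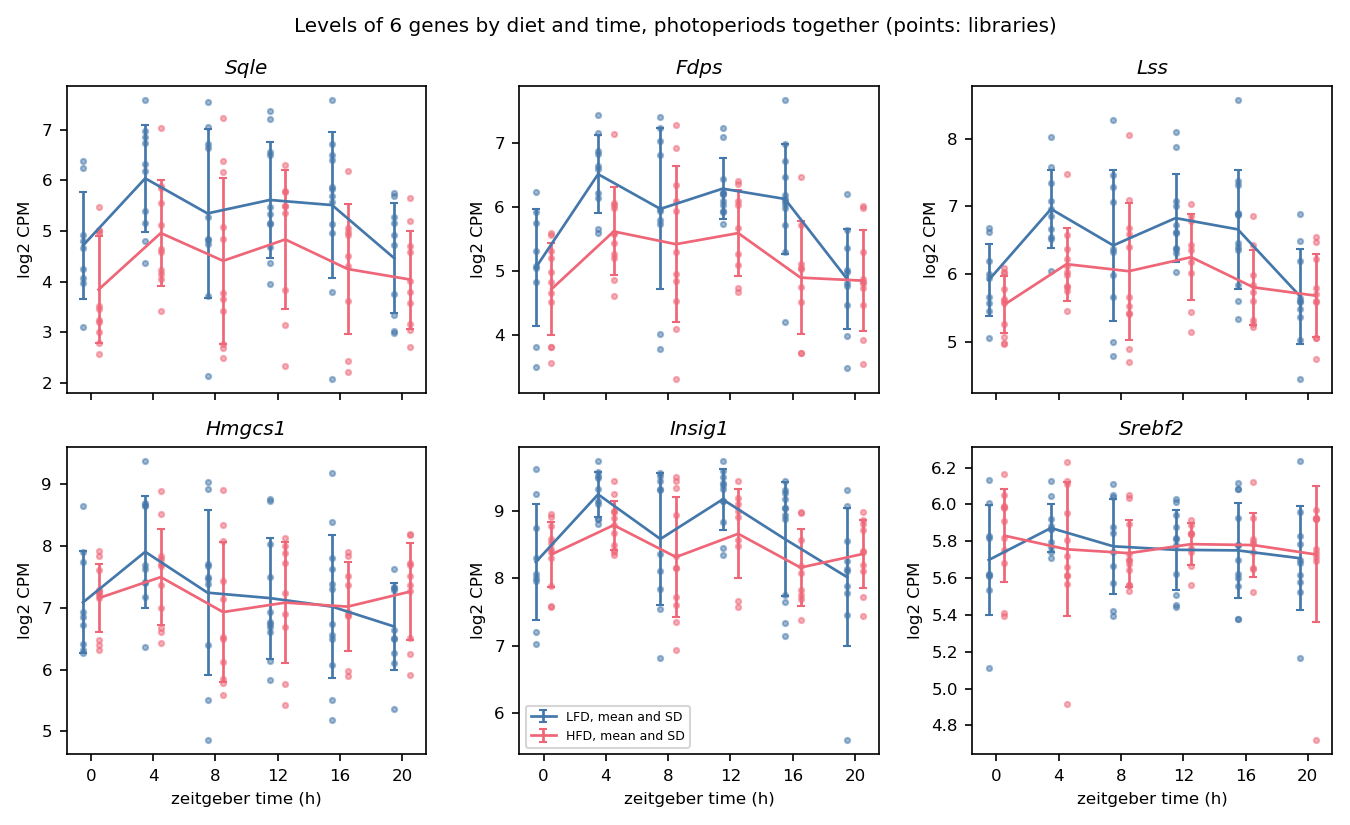
Log2 CPM of 6 genes against zeitgeber time in h, photoperiods together, with 1 point per library and lines through the means with SD bars (LFD blue, HFD red). The HFD means of Sqle lie below the LFD means at all 6 times, those of Fdps and Lss meet at ZT20, and those of Srebf2 differ little.

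In HFD 5 members were rhythmic, Hsd17b7, Nsdhl, Mvk, Npc1 and Stard4, against 23.1% of all genes. Their peaks lay between 5.92 and 8.3 h and their ratios between 1.29 and 1.8. Fdps had a ratio of 1.86 and a peak at 8.34 h in HFD (adjusted p 0.0791), and Insig1 a ratio of 1.25 (adjusted p 0.625). The count ranged from 0 to 15 with 1 library of each group left out in turn, 0 without the third and 15 without the second. It was 3 with no filter on low values. Shares of all genes called in these fits were not counted. The test of the rhythm difference between diets called 0 members (0 at an unadjusted p under 0.05, 0 by limma-voom) and 0.00695% of all genes. The counts of 17 and 5 are thus not shown to reflect a difference in rhythm. They also depend on how well the peaks of the 3 photoperiods align within each diet, and the part of this was not tested. The rhythm difference by diet and photoperiod together also called 0 members (1 at an unadjusted p under 0.05, 0 by limma-voom) and 0% of all genes.

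Single arms held 20 or 21 libraries, and few members were rhythmic in any of them. Limma called 4, 5 and 1 members in LFD under Equal, Long and Short light, against 20.9%, 23.6% and 27.1% of all genes. In HFD it called 3, 7 and 1, against 16.5%, 21.8% and 14.1%. Npc1 was rhythmic in 5 of the 6 arms, Sc5d in 3, and Hsd17b7, Mvk, Scap and Stard4 in 2 each, while 17 members were rhythmic in none. The strongest single case was Npc1 in LFD under Short light, with an amplitude of 0.60 (SE 0.079, adjusted p 4.45e-08) and a ratio of 2.31. Hmgcs1 in LFD under Long light had a ratio of 3.56 and a peak at 6.53 h (adjusted p 0.0116). The number of members rhythmic in at least 1 arm was 11, and 7 without the 19 libraries rich in other tissues. It ranged from 1 to 19 with 1 library of each group left out in turn, lowest without the third and highest without the second. The share of all genes rhythmic in at least 1 arm was not counted, so these counts are not a result about the members.

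The daily course was then compared between photoperiods, with both diets averaged. Npc1, which moves cholesterol out of lysosomes, differed in each of the 3 pairs of photoperiods. At ZT4 its log2 CPM had a lowest, median and highest value of 7.24, 7.73 and 8.31 in 7 Short light libraries, 7.0, 7.39 and 7.70 in 7 Equal light libraries, and 6.60, 6.91 and 7.21 in 7 Long light libraries. Every Short light library thus lay above every Long light library. At ZT16 the order of the medians was turned, with 6.62 in Short, 6.88 in Equal and 7.27 in Long light, and the ranges of Short (6.33 to 6.95) and Long light (6.67 to 7.94) overlapped. The fitted peak was at 3.31 h (SE 0.46) in Short, 7.22 h (SE 0.63) in Equal and 12.91 h (SE 0.84) in Long light. The adjusted p was 2e-11 for Long against Short, 0.000184 for Long against Equal and 0.000454 for Short against Equal light. Rhythm differed between Long and Short light for 52.9% of all genes, so such a difference is not particular to Npc1. The labels give no hours of light, so equal ZT need not mean an equal point of the light cycle across photoperiods. In each of the alternatives run, all 3 tests of Npc1 stayed past the threshold.

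Hmgcs1, the synthase whose level was not called between diets, peaked at 2.73 h (SE 1.07) in Equal, 6.8 h (SE 0.90) in Long and 17.8 h (SE 1.34) in Short light. Its rhythm within Short light was not itself called (adjusted p 0.0503), while those in Equal (0.0082) and Long light (0.000923) were. At ZT8 its log2 CPM ran from 4.86 through 5.78 to 7.67 in 7 Short light libraries and from 6.40 through 7.48 to 8.92 in 8 Long light libraries. At ZT16 the medians were 7.63 in Short and 6.08 in Long light. The ranges overlapped at both times, and the order of the medians at ZT8 was the reverse of that at ZT16. The adjusted p was 6.38e-05 for Long against Short and 0.00525 for Short against Equal light. The Short against Equal call was lost without the first (0.0665) or the third (0.0994) library of each group. Srebf2 differed between Long and Short light (adjusted p 0.0016). Its fitted peak was at 2.5 h (SE 1.26) in Long and 14.51 h (SE 1.40) in Short light, with amplitudes of 0.16 and 0.14. Such opposed courses partly cancel where photoperiods are averaged, so its low amplitude per diet need not mean a flat course in each photoperiod. In LFD, for example, its amplitude was 0.18 in Long (peak 2.91 h) and 0.15 in Short light (13.24 h), neither called. With both diets averaged, its rhythm was called within Long light (adjusted p 0.0309) and not within Short light (0.0654). At ZT12 the 7 Short light libraries of Srebf2 lay between 5.82 and 6.03 and the 6 Long light libraries between 5.51 and 5.84, so that the ranges met only at their edge.

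**Figure D4:**
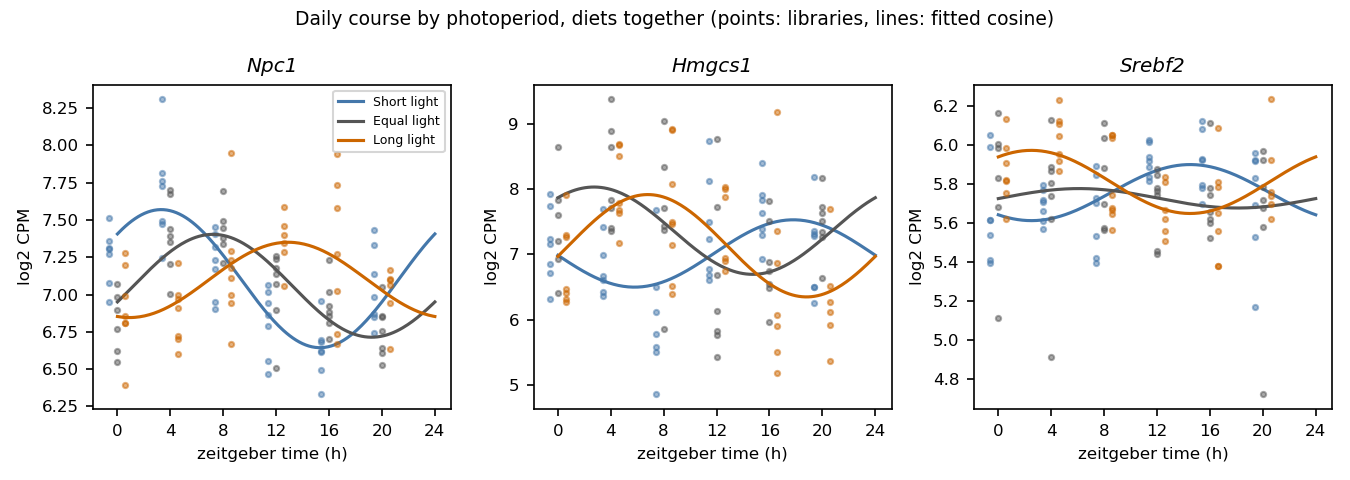
Log2 CPM of Npc1, Hmgcs1 and Srebf2 against zeitgeber time in h for Short, Equal and Long light, with 1 point per library of either diet and the fitted cosine as a line. The Npc1 curve peaks at 3.31 h in Short, 7.22 h in Equal and 12.91 h in Long light; the Srebf2 curves of Long and Short light run in opposite directions.

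In all, 9 members differed in rhythm between Long and Short light, against 52.9% of all genes. Besides Npc1, Hmgcs1 and Srebf2 these were Mvk, Mvd, Lbr, Sc5d, Scap and Stard4. Mvk, Sc5d and Scap had amplitudes of 0.53, 0.50 and 0.32 in Long light and of 0.10, 0.05 and 0.04 in Short light (adjusted p 0.0104, 0.0376 and 0.0343 for the difference). The Short light values average diets whose fitted peaks lay apart for Scap and Mvk. There Scap had amplitudes of 0.15 in LFD (peak 3.95 h) and 0.14 in HFD (18.2 h). Mvk had 0.15 in LFD (9.15 h) and 0.21 in HFD (1.41 h), and Sc5d 0.09 and 0.04, none of them called. Stard4 peaked at 10.48 h with an amplitude of 0.51 in Long light and at 5.84 h (SE 1.65) with 0.25 in Short light (adjusted p 0.0176 for the difference), where its rhythm was not itself called (adjusted p 0.139). Mvd peaked at 7.52 h in Long and 13.91 h in Short light (adjusted p 0.0292 for the difference), and its rhythm within Long light was not called (adjusted p 0.0542). Lbr had an amplitude of 0.05 in Long and 0.19 in Short light (adjusted p 0.0196). Long against Equal light gave 2 members, Npc1 and Scarb1 (0.0462), against 23.8% of all genes. Short against Equal light gave 3, Npc1, Hmgcs1 and Mvd (0.0491), against 16.3%. These shares of the members were below those of all genes in each of the 3 comparisons, and comparisons with Equal light share its libraries. Without the third library of each group, 3 members differed between Long and Short light, and without the 19 libraries rich in other tissues 5 did. Without the 2 libraries farthest from their groups, both in Equal light, 9 differed between Long and Equal light. Shares of all genes called in these smaller fits were not counted.

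Average levels over the day were then compared between photoperiods. Limma called 0 of the 28 for Long against Equal (3 at an unadjusted p under 0.05), Short against Equal (2) and Long against Short light (0), and limma-voom called 0 in each. Over all genes 0.0278%, 0.00695% and 0% were called. The median log2 difference over the 28 members was -0.12 for Long against Equal light and -0.12 for Short against Equal light, where that over all genes was -0.00089 and -0.003. For Long against Short light it was 0.02, and 0.0013 over all genes. The isoprenoid step had the lowest medians against Equal light, at -0.25 in Long and -0.23 in Short light over its 3 genes, none of them called. The half-width of the 95% interval over the members, in log2 units, was 0.22 at the median and 0.57 at most for Long against Equal light. It was 0.21 and 0.56 for Short against Equal light, and likewise 0.21 and 0.56 for Long against Short light. Differences of the size of these medians were therefore mostly within the error of a single gene, and the 2 comparisons with Equal light share its libraries.

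Libraries of the same diet, photoperiod and time differed widely in these genes. The SD between such replicates (log2) was 0.49 at the median over the 28 members, against 0.25 over all tested genes, and 23 of the 28 lay above the latter. It was largest for Sqle at 1.3, followed by Mvd at 1.14 and Idi1 at 1.02, and smallest for Ebp and Npc2 at 0.16. In LFD Long light at ZT16, for example, the 4 libraries of Sqle stood at 7.59, 3.79, 4.96 and 2.08 log2 CPM. In HFD Long light at ZT12 the 3 libraries stood at 5.79, 5.49 and 5.49. The spread of Sqle within a group was thus in some groups larger than the diet difference, and in others small.

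This spread was shared along the pathway. Deviations of each library from its group mean were correlated with those of Sqle over all libraries, a reference chosen after its values were seen. Of the other 27 members 23 had a Pearson's r above 0.5, against 2.94% of 14369 other genes, and the median r was 0.82 against -0.03. Cyp51 had the highest, with r = 0.94 and Spearman's rho = 0.93, followed by Idi1 (0.92 and 0.90), Nsdhl (0.92 and 0.91) and Dhcr7 (0.89 and 0.89). The permutation p within groups was 1e-05 for each of these, raw and adjusted over the 27 relations, the smallest that 100000 permutations can give. Hmgcs1 and Msmo1, which were not called between diets, had r = 0.87 and 0.88. Srebf2 had r = 0.51, with 0.66 within LFD and 0.36 within HFD. Scarb1 (r = -0.51, rho = -0.50) and Mylip (r = -0.56, rho = -0.50) ran the other way, while Ggps1 (r = -0.07) and Npc1 (r = -0.09) had adjusted permutation p-values of 0.506. Without the 2 libraries farthest from the median of Sqle, r was 0.93 for Cyp51, 0.91 for Idi1, -0.48 for Scarb1 and -0.51 for Mylip. Without the 19 libraries rich in other tissues it was 0.95, 0.92, -0.53 and -0.59. Libraries share depth and RNA quality across genes, and their part in these correlations was not tested.

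**Figure D5:**
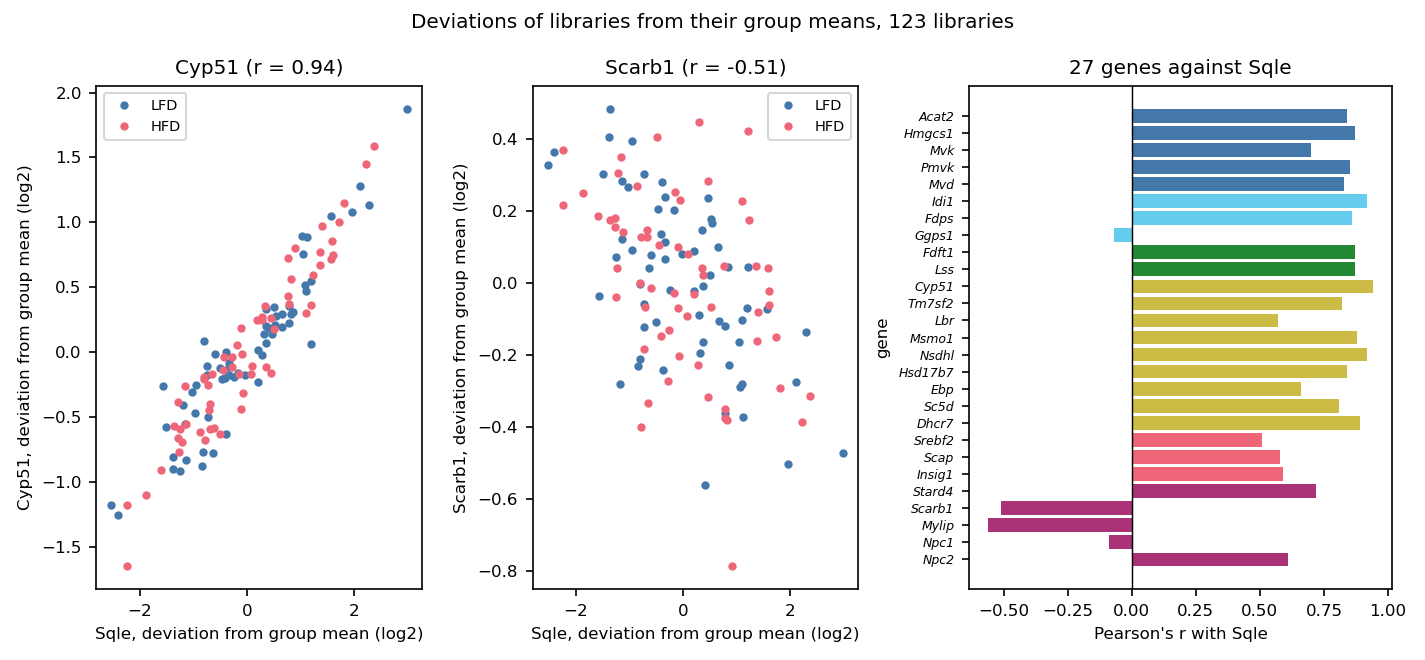
Deviations from the group mean (log2) of Cyp51 and Scarb1 against those of Sqle, with 1 point per library, and at right Pearson's r with Sqle for the other 27 genes, coloured by pathway step as in the plot of diet differences. Cyp51 follows Sqle closely (r = 0.94), Scarb1 runs against it (r = -0.51), and the bars of Ggps1 and Npc1 lie near 0.

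Levels were compared per kb of exon, counting all annotated exon bases of a gene together. Where this exceeds the length of the transcripts expressed, the level is understated. On this measure Insig1, Sc5d and Ebp were the most abundant members, at medians of 132, 124 and 84.1 CPM per kb over all libraries. Hmgcs1 followed at 33.6, Stard4 at 26.9 and Pmvk at 25.6 CPM per kb. Ggps1, Lbr, Idi1 and Mylip were the least abundant, at 2.39, 2.38, 3.55 and 3.83 CPM per kb. Tm7sf2, at 24.1 CPM per kb, stood well above Lbr, which encodes a reductase of the same step, and the spread of either between replicates (SDs of 0.49 and 0.23 on the log2 scale) was small beside that gap.

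Other sterol and isoprenoid genes were read from 3 further lists. Of 12 genes that control sterol sensing in the endoplasmic reticulum, 3 fell and 1 rose in HFD, 4 of 12 called against 25.5% of all genes. Rnf145, a ubiquitin ligase reported to act on Scap in mice, fell by 0.43 (SE 0.057, adjusted p 4.94e-09), and Tmem97, a sterol-responsive protein reported to bind Npc1, by 0.17 (adjusted p 0.0193). The gene that rose, Insig2, a relative of Insig1, is named because the count was small and after its values were seen, at 0.27 (SE 0.094, adjusted p 0.0223). Of 12 genes of sterol storage and efflux, Abcg5, which encodes part of the canalicular sterol exporter, fell by 0.23 (adjusted p 0.00809) and Abca1, the exporter to apolipoprotein, by 0.15 (adjusted p 0.000207). Nceh1, a cholesteryl ester hydrolase, rose by 0.17 (adjusted p 0.0365). The 3 called in this list likewise stand against 25.5% of all genes. Of 11 genes of the isoprenoid side branches 3 rose and 1 fell, 4 of 11 called against the same 25.5%. Pdss2, a subunit of the synthase for the ubiquinone tail, rose by 0.14 (adjusted p 7.59e-05) and Rabggta, a subunit of a prenyltransferase for Rab proteins, by 0.10 (adjusted p 0.0265). Rabggtb, its partner subunit, fell by 0.10 (adjusted p 0.00236), and the further gene that rose was Coq2, of ubiquinone synthesis, at 0.06 (adjusted p 0.0345), likewise named after its values were seen. The median log2 differences of the lists were -0.03, -0.025 and 0.015. The shares called were near that of all genes, so the counts are not a result about these lists.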

How the data were processed

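Stranded poly-A libraries were made from liver RNA that had been extracted with Trizol and RNeasy and were read in pairs, per the labels' protocols. The submitters' processing notes name STAR, featureCounts, Subread 1.6.2 and the build mm10 (GRCm38), without their options. The authors deposited log2 CPM, with a floor of -3.61 that equals a prior of 2.0 reads. With that prior removed, 99.43% to 99.73% of the values of a library were whole reads within 0.05 read, which gave the depths. The prior makes log2 differences understate the change of genes near the floor.

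The 14397 genes that reached 1 CPM in 3 or more libraries were tested. Limma 3.58.1 (R 4.3.3), with a variance trend, was fitted to all libraries, with 36 group means for levels and with a mean, cosine and sine of 24 h per arm for rhythms. Tests of levels were two-sided, and Benjamini-Hochberg adjustment ran over all 14397 genes with a threshold of 0.05. Rhythms per photoperiod and the correlations with Sqle were added after values were seen, and the latter permuted deviations within groups, two-sided. Groups came from the sample titles, and replicate numbers follow the order of deposit. Of 153 pairs of libraries of a group, none differed by as little as sampling noise (lowest chi-square per degree of freedom 14.33), so none were merged.

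The members and lists were chosen with earlier results of these data known. All 28 members are accounted for, and in each further list the 3 genes with the smallest p between diets are named, except 1 that is not reported here. Identifiers matched GENCODE M21 on GRCm38 for 15379 of 15398 genes. Python 3.11.15 was used for tables and figures. The fits were tested on simulated data. Alternatives were limma-voom on the recovered reads, a prior of 0.5 reads, TMM scaling, no filter, each replicate number left out, the 19 libraries rich in other tissues or the 2 farthest from their groups left out, library number as a covariate, times as free levels and, added after seeing the data, scaling by total reads.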

Additional observations from a re-analysis of the deposited data

Results flagged for a closer look

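In 14 groups of 4 libraries a member had a highest or lowest library far from the other 3 libraries, by Dixon's criterion at 95%. These were 27 of 420 combinations of gene and group (6.43%), over 17 members, and chance alone would flag about 1 in 20. Values are log2 CPM of the library that lay apart, which need not be the same library for each gene of a group.

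Among LFD groups, under Equal light at ZT12, 1 library lay above the other 3 for Acat2 at 7.49 and Npc2 at 6.20. At ZT16 in Equal light, 1 library lay above for Scap at 7.32. Under Long light at ZT4, 1 library lay above for Scap at 7.93 and 1 library lay below for Ggps1 at 3.42. At ZT8 in Long light, 1 library lay above for Npc2 at 6.27. Under Long light at ZT16, 1 library lay above for Mvk at 4.56 and Fdft1 at 7.24. At ZT12 in Short light, 1 library lay above for Nsdhl at 6.98 and 1 library lay below for Insig1 at 8.45 and Stard4 at 6.88. Under Short light at ZT16, 1 library lay above for Pmvk at 6.84, Fdft1 at 6.76, Lss at 7.32 and Tm7sf2 at 7.39. At ZT20 in Short light, 1 library lay above for Scarb1 at 8.27 and 1 library lay below for Hsd17b7 at 5.11. Among HFD groups, under Equal light at ZT4, 1 library lay above for Acat2 at 6.90 and Hsd17b7 at 7.06. At ZT20 in Equal light, 1 library lay above for Sc5d at 9.79 and 1 library lay below for Scap at 5.54. Under Long light at ZT0, 1 library lay above for Tm7sf2 at 7.14 and Mylip at 4.28. At ZT0 in Short light, 1 library lay below for Npc1 at 7.08. Under Short light at ZT4, 1 library lay above for Npc2 at 6.25 and 1 library lay below for Mylip at 3.11. At ZT8 in Short light, 1 library lay above for Scarb1 at 7.92.

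Rhythm differences between photoperiods form the other set of results that stand out, with the adjusted p of limma's F test, both diets averaged. Long against Equal light gave Scarb1 (0.0462) and Npc1 (0.000184). Short against Equal light gave Mvd (0.0491), Hmgcs1 (0.00525) and Npc1 (0.000454). Long against Short light gave Lbr (0.0196), Mvk (0.0104), Mvd (0.0292), Sc5d (0.0376), Scap (0.0343), Hmgcs1 (6.38e-05), Srebf2 (0.0016), Npc1 (2e-11) and Stard4 (0.0176).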

How the results depend on the processing

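Counts of members called moved by at most 1.5 times under limma-voom, a prior of 0.5 reads and TMM scaling, in each of the 16 counts. Logs of the TMM library sizes had a correlation of 1 with those of the deposited scaling, so TMM scaling could hardly move a count. The limma-voom fit and the prior of 0.5 reads kept the deposited library sizes. These 3 alternatives therefore do not show how the counts depend on the scaling. No paired analysis was possible because the labels carry no replicate numbers that groups share. Replicate numbers were given here in the order of deposit, which follows the library numbers in the titles sorted as text. A replicate number is therefore not a random draw of libraries, and each draws unevenly on the library numbers. Leaving out replicate 1 or replicate 3 from every group moved 9 of the 16 counts in each case. Leaving out replicate 2 moved 4 and leaving out replicate 4 moved 5. Moved here means by more than 1.5 times, or to or from 0. Without replicate 1, 13 of the 17 diet calls were lost. In these fits 4 to 17 members were lower in HFD over all photoperiods, 0 to 5 differed between diets in Equal light, 0 to 2 in Short light and 0 to 2 at 1 or more times. From 1 to 19 were rhythmic in 1 or more arms, 3 to 21 in LFD and 0 to 15 in HFD. Rhythm differed for 1 to 4 members between Long and Equal light, 1 to 3 between Short and Equal light and 3 to 9 between Long and Short light. Counts of 0 stayed at 0 in every alternative run. Without the 19 libraries high in muscle or pancreas genes the counts were 9 in Equal light, 2 in Short light, 0 at any time, 7 rhythmic in 1 or more arms, 7 rhythmic in LFD and 5 for Long against Short light. Without the 2 libraries farthest from their groups they were 9 in Equal light, 2 in Short light and 9 for the rhythm of Long against Equal light. With library number as a covariate they were 2 in Short light and 1 for the rhythm of Long against Equal light. Scaling by total reads gave 5 for Long against Equal light and moved the median diet difference of all genes by 0.01. With no filter 3 members were rhythmic in HFD. Times as free levels gave 3 rhythmic in HFD and 6 for Short against Equal light. The cause was not tested in any of these cases, although fits without libraries have fewer samples. Shares of all genes called were not counted in the alternatives, so the moves are not shown to be particular to the members. Log2 diet differences changed sign for 7 members, none of them called. With 1 replicate number left out, Hmgcs1 ranged from -0.1299 to 0.0763, Msmo1 from -0.1399 to 0.0950, Hsd17b7 from -0.1355 to 0.0008, Ebp from -0.0496 to 0.0158, Srebf2 from -0.0202 to 0.0797, Scarb1 from -0.0343 to 0.0353 and Npc1 from -0.0112 to 0.0837. With scaling by total reads Hmgcs1 was at 0.0032 and Scarb1 at 0.0025. Srebf2 was at -0.0320 without the libraries rich in other tissues and Scarb1 at 0.0002 without the 2 farthest libraries. The 95% half-width of the diet difference was 0.175 at the median over the members and 0.461 at most. It varied by gene and sets no common limit of detection. Npc2 at -0.14 and Ggps1 at -0.105 were called, while Insig1 at -0.20 and Sc5d at -0.18 were not.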
